A study of Mus musculus with 6 samples.

Results

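The genes described here are 34 genes of the interferon response and of antigen presentation by major histocompatibility complex (MHC) class I molecules, followed in oligodendrocyte precursor cells (OPC), the dividing glial cells that give rise to the myelin-forming cells of the brain and spinal cord. They were chosen by gene symbol, each through the probe with the highest mean log2 intensity over the 6 arrays, and 32 of the 34 had such a probe among 19974 named genes with a probe. For Isg15 and Xaf1 no probe carried the symbol or an older synonym. Transcript levels were read with Illumina bead arrays in primary OPC from spinal cord (3 samples) and cerebrum (3 samples) of C57BL/6 mouse pups aged 6 to 8 days. All 6 cultures grew for 7 days under proliferating conditions with 10 ng/ml PDGF-AA, the growth factor that drives OPC division, and the labels list no interferon treatment. Each replicate number stands for 1 cell preparation, a pool of 3 to 4 pups, which gave a spinal cord and a cerebrum sample. The study asked which genes differ between OPC of the 2 tissues, with migration in view.

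The type I interferons are signal proteins that cells release when they sense foreign nucleic acid. Their receptor acts through Janus kinases on STAT proteins, which join IRF9 and switch on a large set of interferon-stimulated genes. Interferon gamma uses another receptor and, largely through IRF1, raises the genes that cut, carry and load peptides for MHC class I molecules. In the brain, interferon gamma is known to disturb oligodendrocyte development, and OPC can take on an antigen-presenting state in inflamed tissue.

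The promoters of these genes are known for the paired GAAA letters that interferon regulatory factors bind. In RefSeq promoter windows of GRCm38.p6, which run from 250 bases before to 50 after a gene's start, the letters GAAA, any 2 bases and GAAA again were searched on both strands, with overlapping matches kept. They were found in 14 of the 30 members with a window, against 3.44% of all 32851 windows. Some members have 2 windows and were counted once, by a match in either. The shares of members are thus by gene, and the share of all windows is by window. Among members tested between the tissues 8 of 20 held them, and among members whose chosen probe was not tested 5 of 8, and both shares lay above that of all windows. A match describes letters and not a site in use. The windows of members from each side of the results are given with the matches in capitals, B2m and Ifitm2 and Rsad2 as members above background, Ifit1 as a member below it, and Tap1 as a window without a match. A window may show the letters of the other strand. The match begins 139 bases before the start in B2m, 46 in Ifitm2 and 120 in Rsad2, and the matches of Ifit1 begin 104 and 85 bases before it. The Tap1 window shares 275 of its 300 bases with that of Psmb9, which is read from the opposite strand, and Psmb9, Tap1, Psmb8 and Tap2 follow each other directly on chromosome 17.
B2m, chr2:122147437-122147736, plus strand: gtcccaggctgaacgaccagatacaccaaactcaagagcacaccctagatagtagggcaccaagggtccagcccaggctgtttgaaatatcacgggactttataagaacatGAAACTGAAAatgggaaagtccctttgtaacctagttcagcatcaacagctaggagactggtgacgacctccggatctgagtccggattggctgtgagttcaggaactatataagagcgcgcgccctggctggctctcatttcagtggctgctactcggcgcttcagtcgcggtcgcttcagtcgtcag
Rsad2, chr12:26456403-26456702, minus strand: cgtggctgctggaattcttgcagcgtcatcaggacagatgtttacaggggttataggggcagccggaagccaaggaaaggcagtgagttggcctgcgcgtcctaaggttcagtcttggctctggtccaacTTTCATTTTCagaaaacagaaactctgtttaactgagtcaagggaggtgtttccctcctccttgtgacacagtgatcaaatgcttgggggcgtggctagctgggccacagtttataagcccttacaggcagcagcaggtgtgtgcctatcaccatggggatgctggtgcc
Ifitm2, chr7:140955912-140956211, minus strand: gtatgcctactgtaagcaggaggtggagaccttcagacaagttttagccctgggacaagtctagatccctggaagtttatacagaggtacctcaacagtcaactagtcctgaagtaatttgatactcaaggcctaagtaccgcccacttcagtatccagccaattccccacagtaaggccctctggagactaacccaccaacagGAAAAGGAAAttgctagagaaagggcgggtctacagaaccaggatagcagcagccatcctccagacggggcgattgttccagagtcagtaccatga
Ifit1, chr19:34640639-34640938, plus strand: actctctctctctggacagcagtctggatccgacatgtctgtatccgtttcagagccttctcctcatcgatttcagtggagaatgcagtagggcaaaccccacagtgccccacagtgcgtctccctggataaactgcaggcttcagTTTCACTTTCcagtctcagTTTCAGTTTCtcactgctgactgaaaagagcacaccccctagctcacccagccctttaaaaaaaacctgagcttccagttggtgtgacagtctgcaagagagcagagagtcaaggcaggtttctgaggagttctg
Tap1, chr17:34187306-34187605, plus strand: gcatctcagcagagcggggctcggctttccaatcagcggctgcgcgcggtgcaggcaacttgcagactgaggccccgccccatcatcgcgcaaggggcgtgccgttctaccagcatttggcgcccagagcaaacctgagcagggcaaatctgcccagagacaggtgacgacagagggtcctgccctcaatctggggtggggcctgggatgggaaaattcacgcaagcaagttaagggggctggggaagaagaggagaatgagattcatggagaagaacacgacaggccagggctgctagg

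The arrays held OPC by their markers. Pdgfra, Cspg4, Olig1, Olig2 and Sox10 lay above background on all 6 arrays and none passed between the tissues. Their adjusted p in limma was 0.586 or more, and 0.159 or more with the preparation as a block. In each preparation Pdgfra was lower in spinal cord OPC (-0.20 ± 0.10, log2, SE) and Sox10 higher (0.11 ± 0.11), while the others varied in sign. Background was set on each array at the 95th percentile of its 1302 olfactory receptor (Olfr) probes, between 6.07 and 6.10 on the log2 scale, and a probe was tested if it exceeded this floor on at least 3 of the 6 arrays. Between 44.9% and 46.6% of the 45281 probes of an array exceeded it. The 6 arrays had nearly equal distributions, with medians of 64.5 in linear intensity. Cerebrum replicate 3 lay farthest from the others on the second principal component (-25.2, against -8.39 to 18.2 for the rest). Where the call of a member depended on it, the value without it, or without its preparation in the blocked fit, is given.

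All 10 peptide supply and class I genes were bright enough to test, against 7 of the 12 antiviral effectors, 4 of the 6 transcription factors and 1 of the 4 sensors and regulators with a probe. Of the 32 members with a probe 22 were tested (68.8%, against 56.2% of all 19974 genes), 19 of them above the floor on all 6 arrays. In 7 of the 32 members, Irf7, Ifit1, Ifitm3, Usp18, Oasl2, Ifih1 and Gbp2, every probe lay below the floor on every array. Over all genes this held for 7222 of 19974. Irf7, the factor that amplifies interferon production, had 5.69, 5.68 and 5.91 (log2 intensity) in spinal cord OPC, against 5.69, 5.51 and 5.62 in cerebrum OPC. Ifih1, which encodes the RNA sensor MDA5, had 5.59 to 5.70 in spinal cord OPC and 5.52 to 5.70 in cerebrum OPC. The chosen probes of 3 more members were above the floor on 1 array (Mx1) or 2 arrays (Irf8 and Ddx58, the gene of the RNA sensor RIG-I). Each of these statements is about the probe on the array, and a gene with a weak probe cannot be told apart from one that is not expressed.

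**Figure D1:**
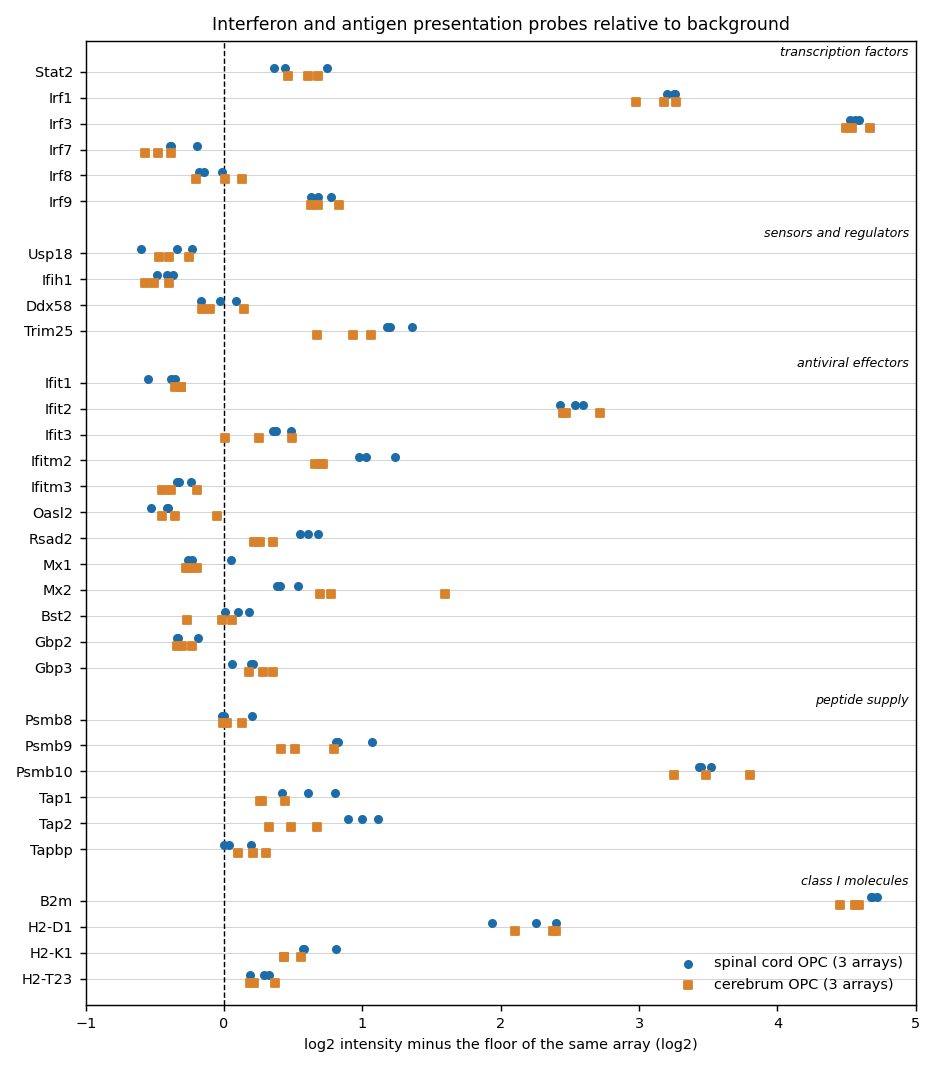
Log2 intensity minus the background floor of the same array (horizontal axis, log2) for the 32 members with a probe, ordered by role, with 1 point per array, circles for spinal cord OPC and squares for cerebrum OPC. The dashed line is the floor; B2m and Irf3 lie more than 4 log2 units above it and Irf7, Ifit1, Ifitm3, Usp18, Oasl2, Ifih1 and Gbp2 lie below it on all arrays.

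Between the tissues 1 member passed, Tap2, which was higher in spinal cord OPC, and 0 were lower (limma, adjusted p under 0.05). This is 4.55% of the 22 tested members, against 2.95% of all 11221 tested genes, of which 1.87% were higher and 1.08% lower. At an unadjusted p under 0.05 there were 7 of the 22, against 10.9% of all tested genes. With the preparation as a block 6 members passed, Tap2, Ifitm2, Rsad2, Psmb9 and Trim25 higher and Mx2 lower in spinal cord OPC. This is 27.3% of the members, against 6.34% of all tested genes, 3.64% higher and 2.7% lower. The tissues did not overlap in 6 members, Tap2, Ifitm2, Rsad2, Trim25 and B2m higher and Mx2 lower, which is 27.3%, against 15.6% of all tested genes, 8.56% higher and 7.02% lower. The median difference over the 22 members was 0.05 (spinal cord minus cerebrum, log2), against 0.0006 over all tested genes, and 13 of the 22 were positive (59.1%, against 50.2%). Differences were small. The 95% confidence interval lay within 1 log2 unit of no change in 21 of the 22, all but Mx2. The arrays carry a background that was not removed, so the fold change of a dim probe is understated. With the median Olfr intensity of each array subtracted the difference grew by over 1.5 times in 15 of the 22, and 0 passed. With 1 of the 6 arrays left out 0 to 2 members passed.

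**Figure D2:**
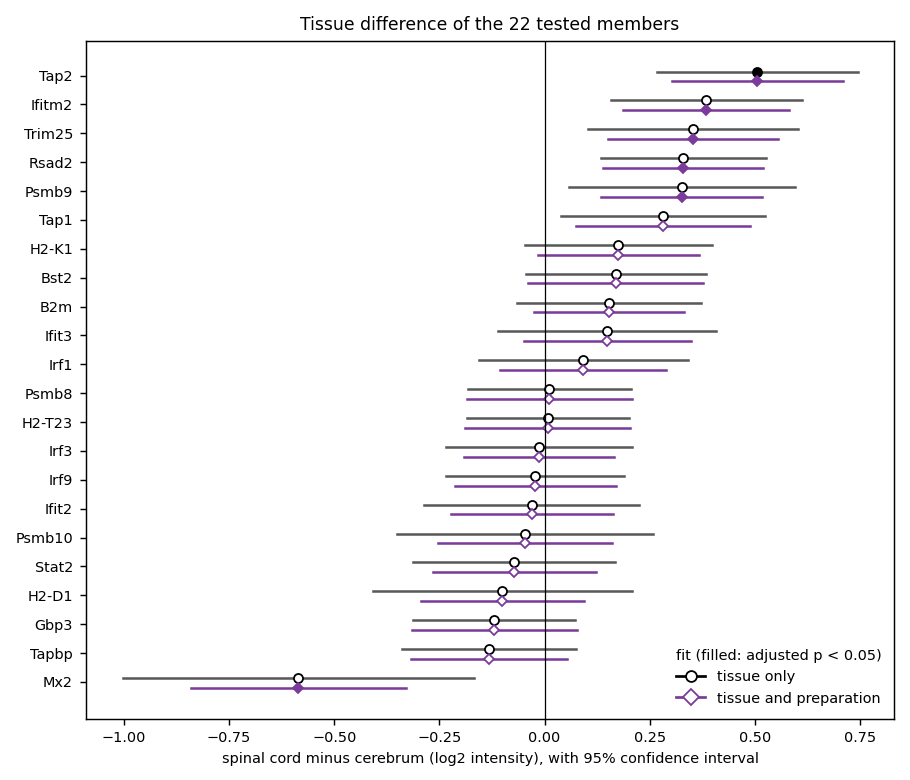
Difference of each tested member, spinal cord minus cerebrum in log2 intensity (horizontal axis), with its 95% confidence interval, for the fit with tissue alone (circles) and with tissue and preparation (diamonds); filled symbols passed at an adjusted p under 0.05. Tap2 is filled in both fits, Ifitm2, Trim25, Rsad2, Psmb9 and Mx2 in the fit with the preparation, and the other 16 members in neither.

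Genes that supply peptides to MHC class I molecules held the member that passed. Tap2 and Tap1 encode the subunits of the transporter that carries peptides into the endoplasmic reticulum. Tap2 had 7.19, 7.07 and 6.99 in spinal cord OPC, against 6.55, 6.76 and 6.42 in cerebrum OPC (log2 intensity). All spinal cord samples lay above all cerebrum samples. The means were 7.08 ± 0.10 and 6.58 ± 0.17 in that order of tissues (SD, n = 3 each), a difference of 0.51 ± 0.11 (log2, SE) or 1.42-fold (95% interval 1.20 to 1.68), with an adjusted p of 0.0288 in limma and of 0.00272 with the preparation as a block. Within the preparations the difference was 0.64, 0.31 and 0.57. With the median Olfr intensity of each array subtracted it was 0.97, with an adjusted p of 0.0634. Tap2 lost its call without cerebrum replicate 1 (adjusted p = 0.0699) and without spinal cord replicate 1 (0.147), 2 (0.119) or 3 (0.0592).

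Tap1 had 6.69, 6.49 and 6.90 in spinal cord OPC, against 6.51, 6.35 and 6.37 in cerebrum OPC. It was higher in spinal cord OPC in each of the 3 preparations, but the tissues overlapped and the difference of 0.28 ± 0.11 (log2, SE) did not pass, with an adjusted p of 0.367 in limma and of 0.133 with the block. Psmb9, which encodes a catalytic subunit of the immunoproteasome, had 6.89, 6.89 and 7.17 in spinal cord OPC, against 6.48, 6.60 and 6.89 in cerebrum OPC. The third preparation was the highest in both tissues, so the tissues overlapped while every preparation had the higher value in spinal cord OPC, by 0.40, 0.30 and 0.28. The difference of 0.33 ± 0.12 (log2, SE) had an adjusted p of 0.336 in limma, of 0.045 with the block and of 0.0293 without cerebrum replicate 3. With the Olfr median subtracted the differences of Tap1 and Psmb9 were 0.64 and 0.63.

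The other peptide supply genes did not pass in either fit. Psmb10, a further immunoproteasome subunit gene, had 9.51, 9.52 and 9.62 in spinal cord OPC, against 9.32, 9.57 and 9.90 in cerebrum OPC, a difference of -0.05 ± 0.14 (log2, SE). Its second tested probe gave -0.16 ± 0.13. Psmb8, which lies between Tap1 and Tap2 on the chromosome and encodes the remaining inducible subunit, had a difference of 0.01 ± 0.09 and lay below the floor on 1 array of each tissue. Tapbp, the gene of tapasin, which holds class I molecules at the transporter, had -0.13 ± 0.10 and was lower in spinal cord OPC in each preparation. Its adjusted p was 0.807. Of the 4 neighbours on chromosome 17, Psmb9, Tap1 and Tap2 thus had a positive difference of 0.28 or more, and Psmb8 one near 0 at the floor.

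The class I molecules themselves did not pass. B2m, the light chain shared by all class I molecules, had 10.79, 10.75 and 10.79 in spinal cord OPC, against 10.53, 10.65 and 10.69 in cerebrum OPC. The tissues did not overlap, yet the difference was 0.15 ± 0.10 (log2, SE), 1.11-fold (95% interval 0.955 to 1.29), with an adjusted p of 0.764 in limma and of 0.43 with the block. Its second tested probe gave 0.03 ± 0.11, and there the tissues overlapped. H2-K1, a classical class I heavy chain gene, had 6.65, 6.65 and 6.91 in spinal cord OPC, against 6.51, 6.52 and 6.65 in cerebrum OPC, a difference of 0.18 ± 0.10 (log2, SE, limma adjusted p = 0.697). Both lower spinal cord values lay just under cerebrum replicate 3, and every preparation had the higher value in spinal cord OPC. H2-D1, the other classical heavy chain gene, had 8.01, 8.33 and 8.50 in spinal cord OPC, against 8.18, 8.46 and 8.50 in cerebrum OPC, a difference of -0.10 ± 0.14, and 0.08 ± 0.10 through its second tested probe. H2-T23, which encodes the nonclassical molecule Qa-1, had 0.01 ± 0.09 and, through its second tested probe, 0.19 ± 0.10. The class I heavy chain genes are related in sequence, so a probe may read more than 1 of them, which was not checked.

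Among the antiviral effectors, the blocked fit called 2 genes higher and 1 lower in spinal cord, and the unblocked fit 0 of the 7 tested (over all tested genes the blocked fit called 3.64% higher and 2.7% lower). Ifitm2, whose membrane protein hinders the entry of viruses, had 7.05, 7.10 and 7.34 in spinal cord OPC, against 6.73, 6.78 and 6.81 in cerebrum OPC. All spinal cord samples were above all cerebrum samples. The difference was 0.38 ± 0.10 (log2, SE), 1.30-fold (95% interval 1.11 to 1.53), with an adjusted p of 0.102 in limma and of 0.0192 with the block. Rsad2, which encodes the antiviral enzyme viperin, had 6.68, 6.62 and 6.78 in spinal cord OPC, against 6.43, 6.30 and 6.36 in cerebrum OPC. The samples did not overlap here either. The difference was 0.33 ± 0.09 (log2, SE), 1.26-fold (95% interval 1.10 to 1.44), with an adjusted p of 0.105 in limma and of 0.0411 with the block. With the Olfr median subtracted the differences of Ifitm2 and Rsad2 were 0.67 and 0.79, with adjusted p of 0.131 and 0.0775.

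Mx2 went the other way. It encodes a dynamin-like GTPase, and in C57BL/6 mice Mx1 and Mx2 are known to carry mutations that disrupt the proteins. Mx2 had 6.48, 6.45 and 6.63 in spinal cord OPC, against 6.84, 6.78 and 7.70 in cerebrum OPC. All spinal cord samples lay below all cerebrum samples, and cerebrum replicate 3 stood far above the other arrays. The difference was -0.59 ± 0.19 (log2, SE), a ratio of 0.666 (95% interval 0.499 to 0.89), with an adjusted p of 0.2175 in limma and of 0.0057 with the block. Without cerebrum replicate 3 it was -0.29 (adjusted p = 0.147), and with the block and without the third preparation -0.35 (adjusted p = 0.0487). With the Olfr median subtracted it was -1.07 (adjusted p = 0.240). The array's table gives this probe the symbol Mx2 with no transcript definition.

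The other tested effectors did not pass in either fit. Bst2, the gene of tetherin, which holds budding viruses at the cell surface, had 6.25, 6.17 and 6.11 in spinal cord OPC, against 5.81, 6.14 and 6.08 in cerebrum OPC, where 2 of the 3 arrays lay below the floor. The difference was 0.17 ± 0.10 (log2, SE, limma adjusted p = 0.697). Ifit2 and Ifit3, whose products act on foreign RNA, had -0.03 ± 0.12 and 0.15 ± 0.12 (0.28 for Ifit3 without cerebrum replicate 3, adjusted p = 0.188), and the second tested probe of Ifit2 had 0.01 ± 0.12. Gbp3, a GTPase gene that responds mainly to interferon gamma, had -0.12 ± 0.09. Ifit1, Ifitm3, Oasl2, Mx1 and Gbp2 were too dim to test. Ifit2 was thus above the floor on all 6 arrays through both its probes while the probe of Ifit1 was below it on all 6.

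Of the sensors and regulators Trim25 was the only member tested through its brightest probe. A dimmer probe of Ddx58 passed the floor on 3 arrays and gave -0.01 ± 0.10 (log2, SE). Trim25 encodes a ubiquitin ligase that acts on the RIG-I pathway. Trim25 had 7.43, 7.25 and 7.30 in spinal cord OPC, against 7.14, 7.02 and 6.77 in cerebrum OPC. The tissues did not overlap. The difference was 0.35 ± 0.12 (log2, SE), 1.28-fold (95% interval 1.07 to 1.52), with an adjusted p of 0.212 in limma and of 0.0391 with the block. With the Olfr median subtracted it was 0.57 (adjusted p = 0.293). Its other probe lay below the floor on all arrays.

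The 4 transcription factors bright enough to test differed little between the tissues. Irf3, the constitutive factor that starts interferon production, had 10.66, 10.63 and 10.62 in spinal cord OPC, against 10.61, 10.75 and 10.59 in cerebrum OPC, a difference of -0.01 ± 0.10 (log2, SE) with a 95% interval from -0.23 to 0.21. Its 2 further tested probes gave -0.26 ± 0.11 and 0.02 ± 0.13, neither of which passed. Irf1, the factor behind many interferon gamma targets, had 9.34, 9.27 and 9.35 in spinal cord OPC, against 9.05, 9.27 and 9.37 in cerebrum OPC, a difference of 0.09 ± 0.11 with an interval from -0.16 to 0.34. Its 2 further tested probes gave 0.006 ± 0.12 and -0.16 ± 0.09. Irf9 and Stat2, partners in the complex that type I interferons activate, had -0.02 ± 0.10 and -0.07 ± 0.11, with intervals from -0.23 to 0.19 and from -0.31 to 0.17. Through the chosen probes the tissues overlapped in all 4, and the adjusted p in limma was 0.939 or more. Through the further probes of Irf3 at -0.26 and of Irf1 at -0.16 they did not overlap, with spinal cord OPC lower. Neither passed (limma adjusted p = 0.396 and 0.668).

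**Figure D3:**
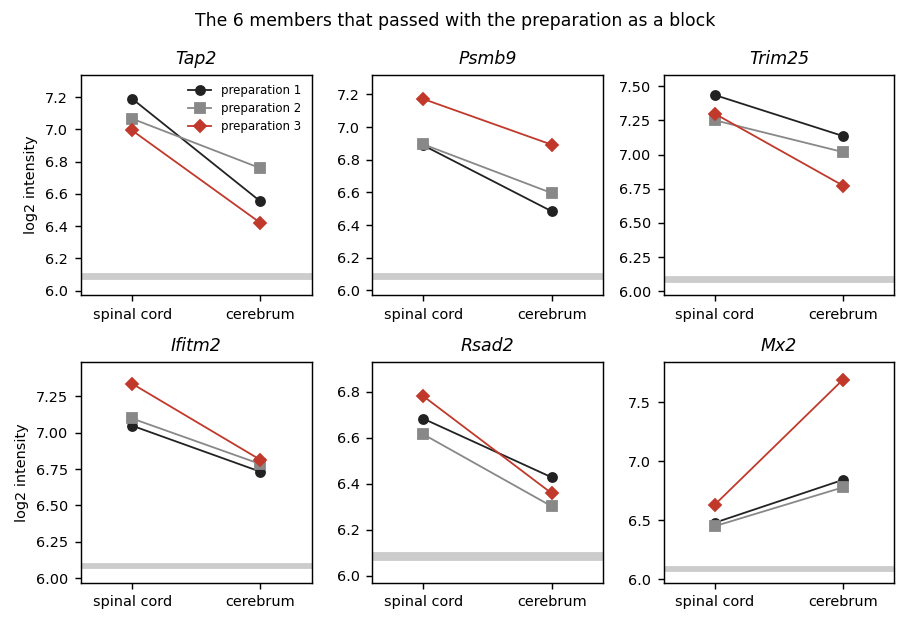
Log2 intensity (vertical axis) in spinal cord and cerebrum OPC of the 6 members that passed with the preparation as a block, with a line joining the samples of each preparation; the grey band is the range of the background floor. In each of the 3 preparations the line falls towards cerebrum for Tap2, Psmb9, Trim25, Ifitm2 and Rsad2 and climbs for Mx2, most steeply in the third.

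Leaving out 1 preparation from the blocked fit left 3 of the 22 members past the threshold each time, against 5.15%, 5.08% and 8.41% of all tested genes without preparation 1, 2 and 3 in turn. Tap2 (adjusted p from 0.000583 to 0.0152) and Mx2 (5.59e-06 to 0.0487) passed in all 3 of these fits. With so few arrays the p-values lean mostly on the spread of other probes, so a low value is weak evidence of stability. Within the preparations Mx2 differed by -0.36, -0.33 and -1.06 (spinal cord minus cerebrum, log2). Ifitm2 passed without the first or second preparation (0.0272 and 0.0424) and not without the third (0.0773). Psmb9 passed without the third (0.046) and not without the first or second (0.269 and 0.135). Rsad2 and Trim25 passed in none of them (0.0665 to 0.129 and 0.0519 to 0.154).

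The preparations were compared over the members as well. The third preparation gave the highest value of its tissue in 12 of 22 members in spinal cord OPC, against 31.5% of all tested genes, and in 12 of 22 in cerebrum OPC, against 36.1%. In a test of the preparation over both tissues 0 of 22 members passed in limma, against 5.02% of all tested genes. At an unadjusted p under 0.05 there were 5, Mx2, H2-D1, Psmb9, Psmb10 and Ifit3, which is 22.7% of the members against 24.5% of all tested genes. The lowest adjusted p were 0.0572 for Mx2 and 0.0823 for H2-D1.

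Other genes of the pathway were followed in a list of 109 genes, of which 107 had a probe and 49 were tested. Of these the unblocked fit called 2 higher and 1 lower in spinal cord, and the blocked fit 4 higher and 2 lower (6.12% and 12.2%, against 2.95% and 6.34% of all tested genes). The largest was Sting1, the adaptor of the pathway that senses DNA in the cytosol. Sting1 had 8.12, 8.08 and 7.77 in spinal cord OPC, against 6.88, 7.03 and 6.44 in cerebrum OPC. The lowest spinal cord sample lay above the highest cerebrum sample, and the difference within the preparations was 1.24, 1.05 and 1.33. Over all samples it was 1.21 ± 0.15 (log2, SE), 2.31-fold (95% interval 1.83 to 2.90). Its adjusted p in limma was 0.000552 without and 1.08e-07 with the block. Unblocked, Sting1 passed without each of the 6 arrays, with an adjusted p of up to 0.0075. With the Olfr median subtracted its difference was 1.85 (adjusted p = 0.00818).

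Cgas, which encodes the DNA sensor upstream of STING, had 9.11, 9.03 and 8.87 in spinal cord OPC, against 8.54, 8.60 and 8.27 in cerebrum OPC. The tissues did not overlap. The difference was 0.54 ± 0.12 (log2, SE), 1.45-fold, with an adjusted p of 0.0391 in limma and of 0.000872 with the block. Its second tested probe gave 0.03 ± 0.09, and the mean of both probes 0.28 with an adjusted p of 0.206. In the unblocked fit Cgas lost its call without cerebrum replicate 2 (adjusted p = 0.0808) and without spinal cord replicate 1 (0.205), 2 (0.191) or 3 (0.0686). It also lost it there with the Olfr median subtracted (0.0649).

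Il10rb, a receptor chain shared by interleukin 10 and the interferons of the lambda type, was lower, with 6.46, 6.37 and 6.29 in spinal cord OPC, against 7.06, 6.74 and 6.79 in cerebrum OPC. The difference was -0.49 ± 0.11 (log2, SE, limma adjusted p = 0.0285 without and 0.00247 with the block). Its second tested probe gave -0.41 ± 0.09 (0.0293 without and 0.00764 with the block). With the Olfr median subtracted it was -1.07 (0.0381). Without 1 array other than cerebrum replicate 3 its adjusted p in the unblocked fit was 0.0516 to 0.152. With the preparation as a block 3 more genes passed. The Janus kinase gene Jak2 was lower, with 9.64, 9.53 and 9.34 in spinal cord OPC, against 9.99, 10.02 and 9.90 in cerebrum OPC. Its difference was -0.46 ± 0.11 (log2, SE, limma adjusted p = 0.0598 without and 0.00287 with the block), and its second tested probe gave -0.37 ± 0.11. Without cerebrum replicate 3 Jak2 passed unblocked (-0.50, adjusted p = 0.0136). Cmpk2, a mitochondrial nucleotide kinase gene and the neighbour of Rsad2 among protein-coding genes of chromosome 12, was higher, with 8.14, 7.88 and 8.10 in spinal cord OPC, against 7.75, 7.47 and 7.31 in cerebrum OPC (0.53 ± 0.13, limma adjusted p = 0.0617 without and 0.0028 with the block). The class I gene H2-M3 was higher, with 6.77, 6.82 and 6.98 in spinal cord OPC, against 6.60, 6.32 and 6.59 in cerebrum OPC. Its difference was 0.36 ± 0.11 (log2, SE, limma adjusted p = 0.165 without and 0.0373 with the block). In the blocked fit without 1 preparation H2-M3 passed without the first (0.0113) and not without the second (0.288) or the third (0.0688). Sting1 (adjusted p up to 2.98e-09), Cgas (up to 0.00307), Il10rb (up to 0.0148), Jak2 (up to 0.0180) and Cmpk2 (up to 0.0142) passed each time.

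Of the ligands only Ifna1 was above the floor, on all 6 arrays, with 6.71, 6.41 and 6.52 in spinal cord OPC, against 6.52, 6.54 and 6.56 in cerebrum OPC (0.01 ± 0.10, log2, SE). The interferon alpha genes are close copies of each other, so its probe may read several. Ifnb1, Ifng, Ifna2 and Ifna4 and the interferon-induced chemokine genes Cxcl9, Cxcl10, Cxcl11 and Ccl5 lay below the floor on all 6 arrays through every probe. The same held for 51 of the 107 genes of the list, against 7222 of all 19974 genes. Among the 51 were Oas1a, Oas2, Oas3, Igtp, Irgm2 and Nlrc5, the last of which encodes the activator of class I genes. Others of the list were bright, among them Irgm1 (means of 13.05 in spinal cord OPC and 13.01 in cerebrum OPC, log2 intensity) and Ifi27 (9.44 and 9.20). Of the receptor chains, Ifnar2, Ifngr1 and Ifngr2 were tested and did not pass (0.04 ± 0.11, 0.03 ± 0.10 and -0.14 ± 0.14, log2, SE), while Ifnar1 was below the floor.

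**Figure D4:**
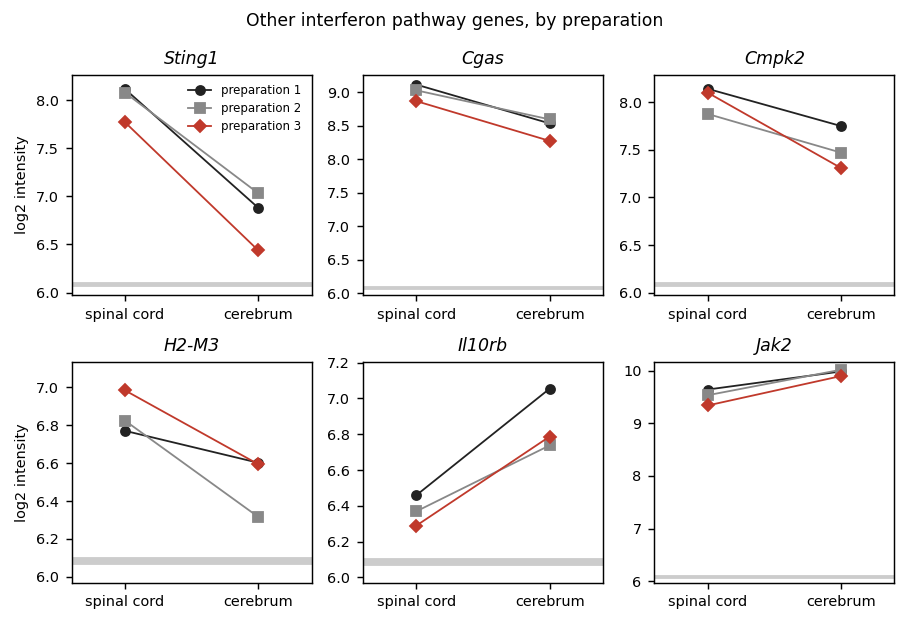
Log2 intensity (vertical axis) in spinal cord and cerebrum OPC of the 6 genes of the other pathway list that passed in either fit, with a line joining the samples of each preparation; the grey band is the range of the background floor. Sting1, Cgas, Cmpk2 and H2-M3 are higher in spinal cord OPC and Il10rb and Jak2 lower in each of the 3 preparations.

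Immune and vascular cells express many of these genes, so their markers were read on the same arrays. Of 21 microglia and macrophage markers 14 were below the floor on all 6 arrays, including Cx3cr1, P2ry12, Tyrobp, C1qa, C1qb and C1qc, and the 4 tested (Laptm5, Aif1, Csf1r and Cd68) did not pass. Their summed linear intensity was 1222 to 1272 in spinal cord OPC and 1232 to 1277 in cerebrum OPC. For 8 endothelial markers it was 478 to 488 in spinal cord OPC and 482 to 501 in cerebrum OPC, with 5 below the floor on all arrays, among them Pecam1 and Cldn5. The 3 tested did not pass in either fit. Tek was above the floor on the 3 cerebrum arrays and on 0 spinal cord arrays (-0.21 ± 0.08, log2, SE, limma adjusted p = 0.309). Cdh5 and Kdr overlapped between the tissues (-0.05 and -0.03). For 6 lymphocyte markers with a probe the sum was 334 to 352 in spinal cord OPC and 322 to 336 in cerebrum OPC, with 4 below the floor on all arrays. Background was not removed, and Olfr probes had medians of 52.3 to 53.0. The microglia, endothelial and lymphocyte sums are therefore mostly background and say little about how many such cells were present. Of 7 astrocyte markers Gfap and Gja1 were below the floor on all arrays, yet the sum of the list was higher in spinal cord OPC, with 15395 to 16805 against 13274 to 14354 in cerebrum OPC. Aldoc and Slc1a3 carried most of that sum, and the mean log2 intensity of the list overlapped, with 8.06 to 8.16 in spinal cord OPC and 8.00 to 8.07 in cerebrum OPC. Aldoc carried an adjusted p in limma of 0.15 (0.33 log2), and of 0.0126 with the block. The part of astrocytes in the differences above was not tested, and in bulk samples fewer cells of a type and less RNA per cell cannot be told apart.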

How the data were processed

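Total RNA of 6 primary mouse OPC cultures, 3 from spinal cord and 3 from cerebrum, was turned into biotin-labelled cRNA for Illumina arrays, per the labels' protocols. The submitters' processing notes name GenomeStudio 2011.1. Deposited values were linear probe intensities in the authors' value table, whose normalisation and background handling are not given in the sources used here. They ran from 36.5 to 49682 with an upper quartile of 162.7 on every array. Olfr probes had medians of 52.3 to 53.0, so background remained. A further deposited table served only for probe annotation (gene symbols, under the unit other), and its 12 columns of per-sample values matched no sample's labels and were not used.

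Symbols were updated through NCBI's gene table for GRCm38.p6 (16219 of 30869 matched a current symbol, 5718 a synonym of 1 gene, 8932 none). A symbol that is another gene's current name was not taken as a synonym. Log2 intensities of 20988 of 45281 probes above the floor were tested in R 4.3.3 by limma 3.58.1, whose eBayes step used an intensity trend, as spinal cord minus cerebrum. P-values were adjusted by Benjamini and Hochberg's method across every tested probe, and 0.05 was the threshold. The fit was tested on simulated data. The series' design text ties each number to 1 preparation. After the tissue means were removed, the samples sharing a number correlated with 0.53, 0.21 and 0.50, so the numbers were taken as pairs. The design without a block is the one reported, with blocked values beside it for genes called in either fit and for some others. The preparation was tested with the moderated F test of that blocked model. With 3 preparations, p-values rest on the spread between these pools, and in the blocked fit on the spread left after the preparation. The eBayes step draws the spread of each probe towards that of probes of like intensity. Much of the spread used is therefore borrowed, above all in the blocked fit, and 3 arrays a tissue limit the precision.

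Members, role groups and the list of other pathway genes were chosen with earlier results of these data known. Values per sample are given for every member called and for the 10 tested members with the largest difference, and for called genes of the other list. Some further values (Irf7, Irf1, Irf3, Psmb10, H2-D1, Ifna1, and the genes of the other list called by the blocked fit alone) were added after they were seen.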

Additional observations from a re-analysis of the deposited data

How the results depend on the processing

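The count of members past the threshold was 1 with tissue alone and 6 with the replicate number (preparation) as a block, 0 with the Olfr median subtracted, and 0 to 2 without 1 array. With the block and without 1 preparation, an alternative chosen after seeing the data, it was 3 each time. The other pathway genes gave 3, 6 with the block, 1 to 5 without 1 array, and 6 to 7 with the block and without 1 preparation. All tested genes gave 331, 711 with the block, 196 to 574 without 1 array, and 578, 570 and 944 with the block and without 1 preparation. For the preparation term the members gave 0, and 0 to 2 without 1 array. The block changed the call of 5 members (Ifitm2, Rsad2, Mx2, Psmb9 and Trim25) and of no other member. Omitting the intensity trend, dropping or tightening the floor and averaging the probes of a gene left the count of members at 1. The deposited arrays already shared their minimum, upper quartile and maximum, so quantile normalisation left the differences almost as they were (Tap2 at 0.51) and is no test of scaling.

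Of 361 values of 28 genes under the alternatives, 15 turned sign, all in members whose difference did not pass. Irf1 had a log2 difference of -0.022 with its probes averaged. Over the fits without 1 array, Irf3 ranged from -0.043 to 0.037, Irf9 from -0.072 to 0.038, Ifit2 from -0.079 to 0.061 and Psmb8 from -0.056 to 0.053. Psmb10 ranged from -0.184 to 0.106, H2-D1 from -0.212 to 0.035 and H2-T23 from -0.029 to 0.055. Probes near the floor, such as those of Bst2, Psmb8 and Tapbp, limit what can be read from their differences.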
